A study of Mus musculus with 3 samples.

Results

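Genes of the nephron lineage and of the ureteric bud were examined in endothelial cells sorted from the embryonic mouse kidney. The set held 37 genes, chosen by symbol as known markers and regulators of these lineages, out of 19938 named genes on the array. A member was measured through probe sets whose platform annotation gives its symbol alone, and all 37 were found, 35 of them with 1 probe set and 2, Nphs1 and Etv5, with 2 probe sets. They were placed in 5 groups by known role, with 8 progenitor genes, 7 early nephron genes, 4 podocyte genes, 7 tubule genes and 11 ureteric genes.

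The nephrons of the kidney form from a cap of mesenchymal progenitor cells around the tips of the branching ureteric bud. Progenitors secrete GDNF, which signals through the receptor RET in the bud and drives its branching, and signals from the bud in turn induce the progenitors to become epithelium. The induced cells pass through the renal vesicle and S-shaped body and separate into podocytes, proximal tubule, loop of Henle and distal tubule, while the bud itself becomes the collecting duct. None of these cells is endothelial, and the question here was how far their genes registered in sorted endothelial cells.

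The 3 samples were all of one kind. Kidneys came from CD-1 mouse embryos at 15.5 days post coitum that carried the Tie2-GFP transgene, in which the promoter of Tek, the gene of the angiopoietin receptor Tie2, drives green fluorescent protein. Each sample was a pool of 4 to 5 kidneys, dissociated with trypsin, sorted for GFP, amplified in 1 round and hybridized to 1 Affymetrix Mouse Gene ST array. The Tek promoter is also known to be active in some blood-forming cells and macrophages. The study describes its samples as independent biological ones, and the p-values rest on differences between these 3 pools. The test used below (limma) combines a probe set's own spread with that of all probe sets. A probe set with equal values in all 3 arrays shows no spread of its own. This lowers the combined spread and can make its p-value too small. No array of nephron, ureteric bud or unsorted kidney was analysed here, so no level could be set against that of the cells these genes mark. In pooled RNA, fewer cells of a type and less RNA per cell cannot be told apart.

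All values are the deposited log2 values, and ± gives the SD over the 3 arrays (n = 3). Each probe set was tested with limma against the study's low-signal level of 100, which is 6.64 on the log2 scale. A gene was called above the level if any of its probe sets passed with an adjusted p under 0.05, and below if all did. The deposited values often repeat exactly. Arrays 1 and 2 held equal values for 50.6% of the 35557 probe sets, and for 65.3% of the 8461 probe sets with a mean between 6 and 7 log2. Of the 37 members, 28 were equal in arrays 1 and 2 (75.7%, against 63.5% of all named genes) and 10 were equal in all 3 (27.0%, against 25.6%). An SD of 0.00 in such genes understates the error, so each call was also made with 1 spread pooled over all probe sets, an SD of 0.49 log2, and this is named the pooled spread below. The median of 1192 olfactory and vomeronasal receptor genes, taken as genes silent in the kidney, was 4.67, 4.71 and 5.08 log2 in arrays 1, 2 and 3. Markers of the labelled cell type were high. By limma 10 of 12 endothelial genes passed above the level and the remaining 2 were on neither side, and by the pooled spread all 12 were above, with Tek itself at 11.12, 10.97 and 10.13 log2 in the 3 arrays and the junction genes Cdh5 and Pecam1 at 11.57, 11.23 and 10.43 and at 10.49, 10.37 and 9.40.

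Most nephron and ureteric genes stood at or under the level, with a few clear exceptions. Of the 37 members 9 were above the level, or 24.3%, while 41.6% of all named genes were called above. Below the level were 23 members, or 62.2%, while 41.6% of all named genes were called below, and 5 members were on neither side. Many members lay close to the level, 18 of the 37 within 0.5 log2 of it. By the pooled spread 6 members were above (16.2%, background 36.0%) and 12 were below (32.4%, background 32.5%), so the surplus of members below the level was not seen with that spread. The count below also moved with the arrays used, to 13 without array 1 and 12 without array 2, against 22 without array 3. The fit without array 3 kept arrays 1 and 2, in which 28 members held equal values. Their own spread was therefore 0 in that fit, and its count is no separate check. With no test, by at least 100 on the raw scale in all 3 arrays, 9 members passed (24.3%, background 47.9%). Set against the receptor genes, 9 members exceeded the 95th percentile of those genes in all 3 arrays (24.3%, background 48.9%), and these were the same 9 that were called above the level. That percentile was 6.27, 6.38 and 6.66 log2 in arrays 1, 2 and 3. In array 3 it was almost the level itself, so the match is largely built in. A further 18 members exceeded the percentile in no array.

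**Figure D1:**
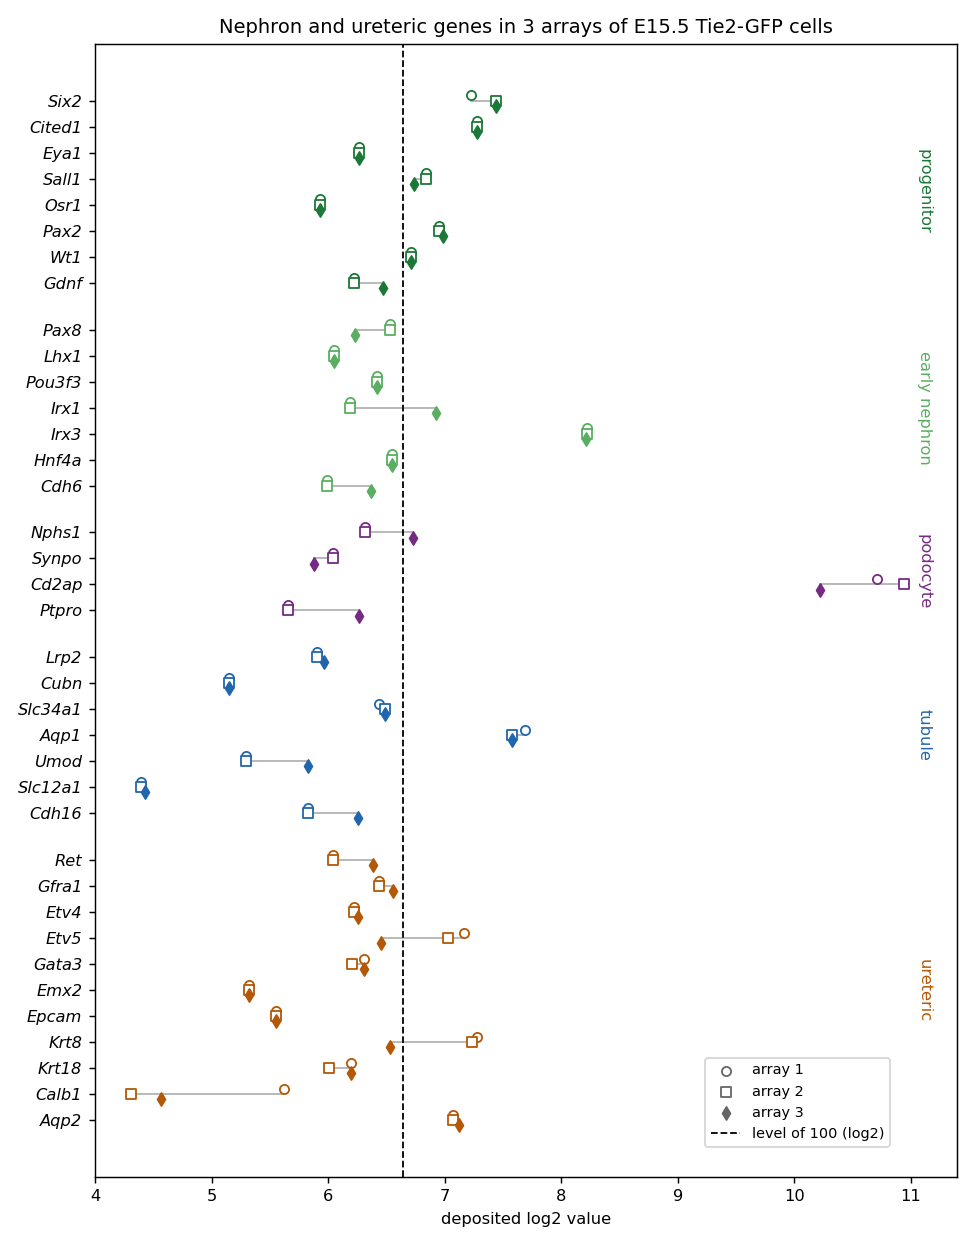
Deposited log2 value of each of the 37 member genes (x axis) in array 1 (open circles), array 2 (open squares) and array 3 (filled diamonds), with a grey line from the lowest to the highest array and a small vertical offset so that equal values can be seen. The dashed line is the level of 100, or 6.64 log2, and 5 of 8 progenitor genes lie to its right against 1 of 7 tubule genes (Aqp1) and 1 of 11 ureteric genes (Aqp2) in all 3 arrays.

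Of the 8 progenitor genes 5 were above the level and 3 below by limma, against 41.6% of all named genes on each side, and the values above were modest. Six2, the factor that keeps progenitors undifferentiated, was at 7.22 log2 in array 1 and 7.44 in arrays 2 and 3 (7.37 ± 0.12, adjusted p = 0.00793). Cited1, a coactivator that marks the youngest cap cells, was at 7.28 in every array (adjusted p = 5.06e-05). Both were also above the level by the pooled spread (adjusted p = 0.0173 and 0.0382). Pax2, a paired-box factor of progenitors and bud alike, was at 6.95 in arrays 1 and 2 and 6.99 in array 3. The zinc finger factor Sall1 was at 6.84 in arrays 1 and 2 and 6.74 in array 3. Wt1, which acts in progenitors and later in podocytes, was at 6.71 in all 3 arrays. These 3 genes were above the level by limma and not by the pooled spread (adjusted p = 0.329, 0.664 and 0.905). On the raw scale the means of the 5 genes lay between 105 and 165. The other 3 progenitor genes were below. Osr1, which specifies the early kidney mesenchyme, was at 5.93 in each array and was below by the pooled spread too (adjusted p = 0.0164). Eya1, a phosphatase and coactivator that works with Six2, was at 6.27 in each array. Gdnf, the ligand that draws out the ureteric bud, was at 6.22 in arrays 1 and 2 and 6.47 in array 3. Eya1 and Gdnf did not pass with the pooled spread (adjusted p = 0.209 and 0.262). By that spread the progenitor group had 2 genes above, 1 below and 5 on neither side, against 36.0% of all named genes above.

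Early nephron genes other than Irx3 were below the level or on neither side of it. By limma 1 of the 7 genes was above, 4 were below and 2 passed neither test (41.6% of all named genes on each side). By the pooled spread 1 was above, 1 below and 5 on neither side (36.0% of all named genes above and 32.5% below). Irx3, a homeobox factor of the intermediate nephron segment, was at 8.22 log2 in arrays 1 and 2 and 8.22 in array 3 after rounding (8.22 ± 0.00, adjusted p = 1.81e-05, and 7.57e-08 by the pooled spread), at percentile 82.3 of all named genes. Its relative Irx1 behaved differently, at 6.18 in arrays 1 and 2 and 6.92 in array 3, and passed neither test. Lhx1, a LIM factor needed for the renal vesicle to be patterned, was at 6.05 in every array and below by both spreads (adjusted p = 4.44e-05 and 0.0466). Pou3f3, a regulator of the loop of Henle and distal nephron, was at 6.42 in every array. Hnf4a, which drives the proximal tubule program, was at 6.55 in every array. Both were below by limma and not by the pooled spread (adjusted p = 0.450 and 0.722). Cdh6, the cadherin of the future proximal tubule, was at 5.99 in arrays 1 and 2 and 6.37 in array 3 and was below by limma and not by the pooled spread (adjusted p = 0.0797). Pax8, a paired-box factor that acts with Pax2, was at 6.53 in arrays 1 and 2 and 6.23 in array 3, with an adjusted p of 0.128 for lying below.

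Among the podocyte genes Cd2ap was high and the others were not. Cd2ap, an adaptor of the slit diaphragm that many other cell types also make, was at 10.71, 10.94 and 10.22 log2 in arrays 1, 2 and 3 (10.63 ± 0.37, adjusted p = 0.00244), at percentile 97.5 of all named genes. Nephrin, the slit diaphragm protein encoded by Nphs1, is held to be more specific to podocytes. Its probe sets differed, as 1 was at 6.38 in arrays 1 and 2 and 7.15 in array 3 and did not pass (adjusted p = 0.923 for lying below), while the other was at 6.26, 6.26 and 6.30 and was below the level (adjusted p = 0.00131). Synpo, an actin regulator of foot processes, was at 6.04 in arrays 1 and 2 and 5.88 in array 3. The receptor phosphatase Ptpro was at 5.65 in arrays 1 and 2 and 6.27 in array 3. Both Synpo and Ptpro were below the level by limma and by the pooled spread. Of 10 podocyte genes outside the set 6 were above the level and 2 below by limma (41.6% of all named genes on each side). By the pooled spread 3 were above and 1 below (36.0% of all named genes above and 32.5% below). Among these 10 genes Podxl, Foxc2, Lmx1b and Kirrel were above and Plce1 and Dach1 below by limma. Podxl and Foxc2, which endothelial cells are also known to express, were at 8.04 ± 0.18 and 9.41 ± 0.02, while Lmx1b (7.02 in every array) and Kirrel (6.87 in every array) did not pass with the pooled spread.

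Genes of the differentiated tubule were the furthest below the level as a group, with a median of 5.93 log2. By limma 6 of 7 genes were below, against 41.6% of all named genes. The endocytic receptors of the proximal tubule were low in each array, Lrp2 at 5.91 in arrays 1 and 2 and 5.97 in array 3 and Cubn at 5.15 in all 3. Slc12a1, the sodium-potassium-chloride cotransporter of the thick ascending limb, was at 4.39 in arrays 1 and 2 and 4.43 in array 3 (adjusted p = 3.80e-05), at percentile 5.27 of all named genes. Umod, which encodes the most abundant protein of urine and is made in the same segment, was at 5.30 in arrays 1 and 2 and 5.83 in array 3. Cdh16, the kidney-specific cadherin of tubule and duct epithelium, was at 5.82 in arrays 1 and 2 and 6.26 in array 3. These 5 genes were below the level by the pooled spread as well, against 32.5% of all named genes. The phosphate transporter Slc34a1 lay nearer to it, at 6.44 in array 1 and 6.49 in arrays 2 and 3, and was below by limma (adjusted p = 0.00659) and not by the pooled spread (adjusted p = 0.550). Aqp1 was the exception. This water channel, found in the proximal tubule and thin descending limb and also in endothelium and red cells, was at 7.69 in array 1 and 7.57 in arrays 2 and 3 (7.61 ± 0.06, adjusted p = 0.00132, and 0.00120 by the pooled spread).

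Ureteric genes were mostly below the level by limma, with 8 of 11 below (41.6% of all named genes), 1 above and 2 on neither side. By the pooled spread 1 was above, 3 were below and 7 were on neither side, so the share below was under the 32.5% of all named genes with that spread. Ret, the receptor for GDNF, was at 6.04 log2 in arrays 1 and 2 and 6.38 in array 3, its coreceptor Gfra1 at 6.44 in arrays 1 and 2 and 6.56 in array 3, and Etv4, a target factor of RET signalling, at 6.23 in arrays 1 and 2 and 6.25 in array 3. All 3 were below by limma, and none by the pooled spread (adjusted p = 0.103, 0.568 and 0.174). Etv5, the partner of Etv4, was split between its probe sets. The first was at 7.86, 7.59 and 6.44 in arrays 1, 2 and 3, above the level by the pooled spread (adjusted p = 0.0326) and not by limma (adjusted p = 0.260), and the other was at 6.47 in each array. Gata3, a factor of the nephric duct, was at 6.30 in arrays 1 and 3 and 6.20 in array 2, and was below by limma and not by the pooled spread (adjusted p = 0.213). Emx2, a homeobox factor of the bud epithelium, was at 5.32 in every array and the adhesion molecule Epcam, a general marker of epithelium, at 5.56 in every array, and both were below by either spread (adjusted p = 1.55e-05 and 1.88e-05 by limma). Shared values were common in the set, as 21 of the 37 members had an array 1 value that another probe set also held. The array 1 values of Emx2, Epcam and Gata3 were held by 61, 29 and 76 probe sets. The keratins Krt8 and Krt18, which pair in the filaments of simple epithelia, did not go together. Krt8 was at 7.27 and 7.24 in arrays 1 and 2 and 6.53 in array 3 and passed neither test, while Krt18 was at 6.20, 6.01 and 6.20 and was below by limma and not by the pooled spread (adjusted p = 0.0893). Calb1, the calcium-binding protein of bud and distal tubule, had the widest spread of the set, at 5.62, 4.31 and 4.57 in arrays 1, 2 and 3 (4.83 ± 0.70). Aqp2, the vasopressin-regulated water channel of the collecting duct, was above the level at 7.07 in arrays 1 and 2 and 7.12 in array 3 (adjusted p = 0.00146), and not so by the pooled spread (adjusted p = 0.160). The defining epithelial gene Epcam was thus at percentile 21.2 of all named genes and Aqp2 at percentile 61.1, although probe sets differ in affinity and the level of no gene was tested against that of another.

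Promoter sequence was looked at beside the levels, since regulators and terminal tubule genes are known to differ in promoter type. The 250 bases before the start of 28 members (37 promoters, as some genes have several starts) were taken from RefSeq, build GRCm38.p6, and 9 members had no entry. The median number of CG dinucleotides in this window was 12 over the members' promoters, against 6 over all 32851 promoters. It was 17 for progenitor genes (12 promoters), 12 for ureteric genes (9) and 3 for tubule genes (6). By call, it was 16.5 for the 14 promoters (8 genes) of members above the level and 7.5 for the 18 (16 genes) of members below. The progenitor genes Cited1, Sall1 and Pax2 each have several promoters among the 14, so the split by call overlaps the split by group. The letters TATAAA, on either strand, were found in 3 of the 37 promoters (8.11%), against 12.4% of all promoters. These counts are a description of the sequences, and promoters of the same gene are not independent. The last 150 bases before the start are shown for 5 members that span the range of levels, 5′ to 3′ on the strand of the gene, with each CG in capitals.
Six2 (chr17:85688255-85688404, minus strand): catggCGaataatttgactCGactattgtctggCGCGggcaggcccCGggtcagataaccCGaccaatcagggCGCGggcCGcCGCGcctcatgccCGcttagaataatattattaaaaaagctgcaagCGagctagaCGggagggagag
Irx3 (chr8:91801655-91801804, minus strand): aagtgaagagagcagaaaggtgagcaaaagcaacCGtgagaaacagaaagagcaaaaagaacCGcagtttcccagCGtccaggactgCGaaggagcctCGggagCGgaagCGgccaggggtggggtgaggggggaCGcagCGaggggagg
Cd2ap (chr17:42876425-42876574, minus strand): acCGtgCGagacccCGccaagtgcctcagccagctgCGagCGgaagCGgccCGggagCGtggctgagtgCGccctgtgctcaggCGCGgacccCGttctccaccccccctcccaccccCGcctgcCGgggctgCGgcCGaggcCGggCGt
Umod (chr7:119479263-119479412, minus strand): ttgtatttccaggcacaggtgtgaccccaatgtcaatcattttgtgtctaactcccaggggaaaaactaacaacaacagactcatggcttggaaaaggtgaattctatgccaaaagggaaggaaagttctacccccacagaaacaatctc
Slc12a1 (chr2:125152450-125152599, plus strand): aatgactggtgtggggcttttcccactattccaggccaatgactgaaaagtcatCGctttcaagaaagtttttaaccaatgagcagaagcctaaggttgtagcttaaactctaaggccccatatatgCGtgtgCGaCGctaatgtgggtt
Within these stretches Cd2ap had 18 CG dinucleotides, Six2 14, Irx3 9, Slc12a1 4 and Umod 0. Among these 5 chosen members the 3 called above the level had more than the 2 tubule genes called below it. The CG count did not follow the level in every member, as Lhx1 had 26 in its 250 bases, the same as Six2, and was below the level. Emx2 (24), Gata3 (19) and the tubule gene Lrp2 (18) were below as well, while Aqp1 was above with 5.

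The other genes known for the same lineages gave a less one-sided picture. Of 62 further genes listed for the 5 roles 51 were measured, and of these 21 were above the level (41.2%, near the background of 41.6%) and 14 below (27.5%). By the pooled spread 15 were above (29.4%, background 36.0%) and 9 below (17.6%, background 32.5%). Of 11 other progenitor genes 5 were above and 3 below, with the crystallin Crym at 7.38 ± 0.06 log2, the homeobox gene Uncx at 7.10 ± 0.17, Hoxd11 at 6.85 and the adhesion molecule Ncam1 at 6.92 in every array, and with Hoxa11 (6.09 in every array) and Fgf20 (6.11 ± 0.24) below. Of 11 other early nephron genes 5 were above and 1, the Notch ligand Dll1, was below. Wnt4, the signal that turns mesenchyme into epithelium, was at 7.16 ± 0.11 as the mean of several probe sets. Its call above rests on any of them passing, and their separate values are not given here. The Notch target Hes5 was at 7.95 ± 0.05 and the Wnt modulator Sfrp2 at 8.07 in every array. The cyclin Ccnd1, which dividing cells of many types use, was at 9.86 ± 0.62. Of 8 other tubule genes 4 were on neither side and 4 were below the level, Slc3a1 (5.97 ± 0.21) and Slc27a2 (5.60 ± 0.32) among the latter. Of 11 other ureteric genes 5 were above and 4 below. Hoxb7, a Hox gene of the bud and of other trunk tissue, was at 7.67 in every array, Sox9 at 7.29 ± 0.07, Wnt9b at 7.01 ± 0.12 and the epithelial cadherin Cdh1 at 6.67 in every array, while Wnt7b (6.38) and the keratin Krt19 (5.84) were below, each with equal values in the 3 arrays. Of the further genes named here as above, Crym, Wnt4, Hes5, Sfrp2, Ccnd1, Hoxb7 and Sox9 were also above by the pooled spread, while Uncx, Hoxd11, Ncam1, Wnt9b and Cdh1 were not. Of those named as below, Slc3a1, Slc27a2 and Krt19 were also below by the pooled spread, while Hoxa11, Fgf20, Dll1 and Wnt7b were not.

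Marker lists of the other cells in the kidney give a frame for these positions. Of all named genes, 41.6% were above and 41.6% below the level by limma, and 36.0% and 32.5% by the pooled spread. The median percentile among all named genes was 52.4 for the progenitor group, 43.4 for early nephron, 37.7 for podocyte, 29.7 for tubule and 38.0 for ureteric genes, against 94.6 for the 12 endothelial markers. Over all 37 members it was 40.0. Stromal and mural markers had a median percentile of 49.8, with 6 of 12 above the level and 5 below by limma and 2 above and 4 below by the pooled spread. Foxd1, the factor of the renal stroma, was at 7.46, 7.68 and 8.48 log2 in arrays 1, 2 and 3, Meis1 was at 6.97 ± 0.13, and the collagens Col1a1 and Col3a1 were at 7.58 and 6.92 in every array, with Meis1 and Col3a1 not above by the pooled spread. Pdgfrb (5.87 in every array) and Tbx18 (5.00 ± 0.22) were below. Macrophage markers had a median percentile of 64.9, with 1 of 10, the chemokine receptor Cx3cr1 (7.48, 7.97 and 8.36), above the level by limma and 5 by the pooled spread. Erythroid markers had a median percentile of 24.6, with 2 of 7 above the level and 4 below by limma and 1 above and 4 below by the pooled spread. The anion exchanger Slc4a1 at 6.77 ± 0.01 and the embryonic globin Hba-x at 7.47 ± 0.14 were above by limma, Slc4a1 not by the pooled spread. Epb42 (5.58) and the red cell factor Klf1 (5.71) were below. The part of carried-over nephron, stromal or blood cells in the members' values was not tested.

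**Figure D2:**
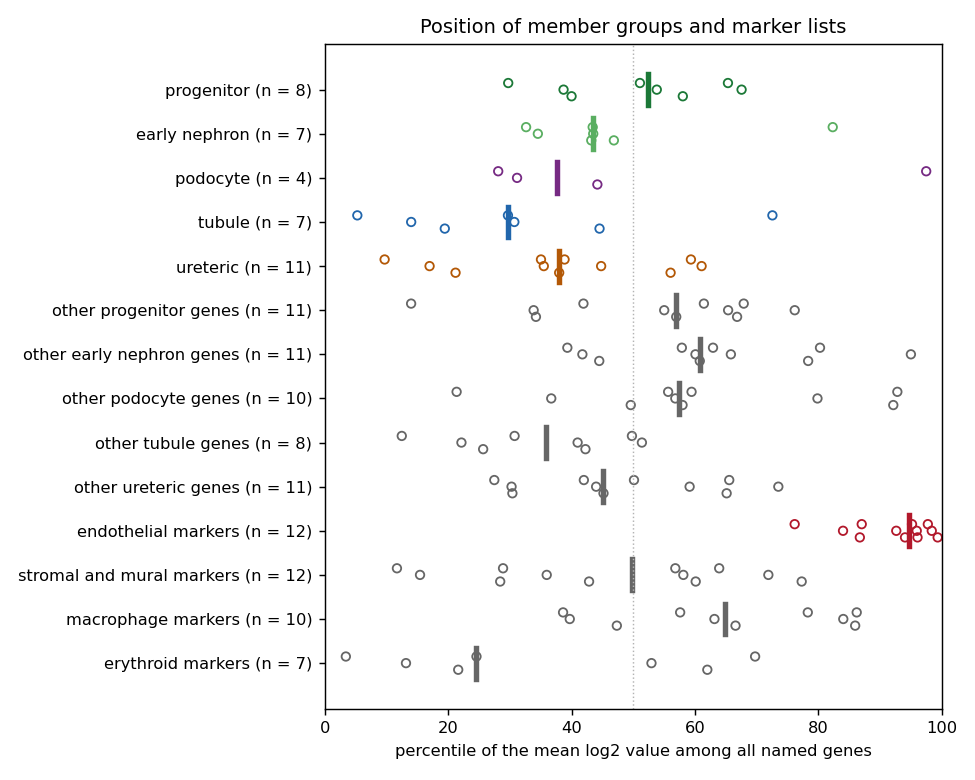
Percentile of each gene's mean log2 value among 19938 named genes (x axis) for the 5 member groups, the further genes of the same lineages and marker lists of other cells (y axis, with the number of genes measured). Each open circle is a gene, spread vertically for legibility, and thick bars mark list medians, at 52.4 for progenitor genes, 29.7 for tubule genes and 94.6 for endothelial markers.

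Array 3 had the lowest endothelial markers and array 1 the lowest macrophage markers, on average, while the average of the members differed little between arrays. The mean over the 12 endothelial markers was 10.14, 9.96 and 8.97 log2 in arrays 1, 2 and 3, and all 12 genes were lower in array 3 than the mean of arrays 1 and 2. The mean over the 10 macrophage markers was 6.57, 7.58 and 8.04, with 9 of the 10 genes higher in array 3 than the mean of arrays 1 and 2 and 7 of the 10 higher in array 3 than in array 2. All 10 were higher in array 2 than in array 1. The mean over the 37 members was 6.43, 6.39 and 6.45. The part of the marker differences in the members' values was not tested. Of the members 18 were higher in array 3, 9 were lower and 10 were equal, with a median difference of 0.00 log2. For the receptor genes, whose level is background, the median difference was 0.30. Among members with a mean between 6 and 7 log2 it was 0.03 (19 genes), against 0.00 for all 5474 named genes of that level, and between 5 and 6 log2 it was 0.00 (9 genes), against 0.13 for 3909 genes. Named genes of high level were lower in array 3, with a median difference of -0.34 between 8 and 9 log2 and -0.33 between 9 and 11 log2.

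Single members differed more, in both directions. Krt8, Etv5, Cd2ap and Calb1 were lower in array 3 than the mean of arrays 1 and 2, by -0.72, -0.64, -0.61 and -0.40 log2. Of these Cd2ap lay within the quartiles of all named genes between 9 and 11 log2, -0.76 and -0.03. Calb1 was lowest in array 2 (4.31) rather than array 3 (4.57), and its difference rests on a higher value in array 1 (5.62). Irx1, Ptpro, Umod and Cdh16 were higher in array 3, by 0.74, 0.61, 0.53 and 0.43. After quantile normalization between the arrays these differences were -0.71, -0.65, -0.32 and -0.77 for the first 4 and 0.75, 0.49, 0.33 and 0.32 for the others, so none of the 8 changed direction. Some members with smaller differences did. Irx3 went from -0.01 to 0.36, Aqp1 from -0.06 to 0.18, Slc12a1 from 0.04 to -0.38 and Lrp2 from 0.06 to -0.09. Slc34a1, Etv4, Gata3 and Krt18 also turned from higher to lower. The counts of members higher and lower in array 3 thus depended on the scaling. Among the progenitor genes Gdnf was higher in array 3 by 0.25, Six2 by 0.11 and Pax2 by 0.04, Sall1 was lower by -0.10, and the other 4 were equal. With 1 array against 2 these differences have no test.

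**Figure D3:**
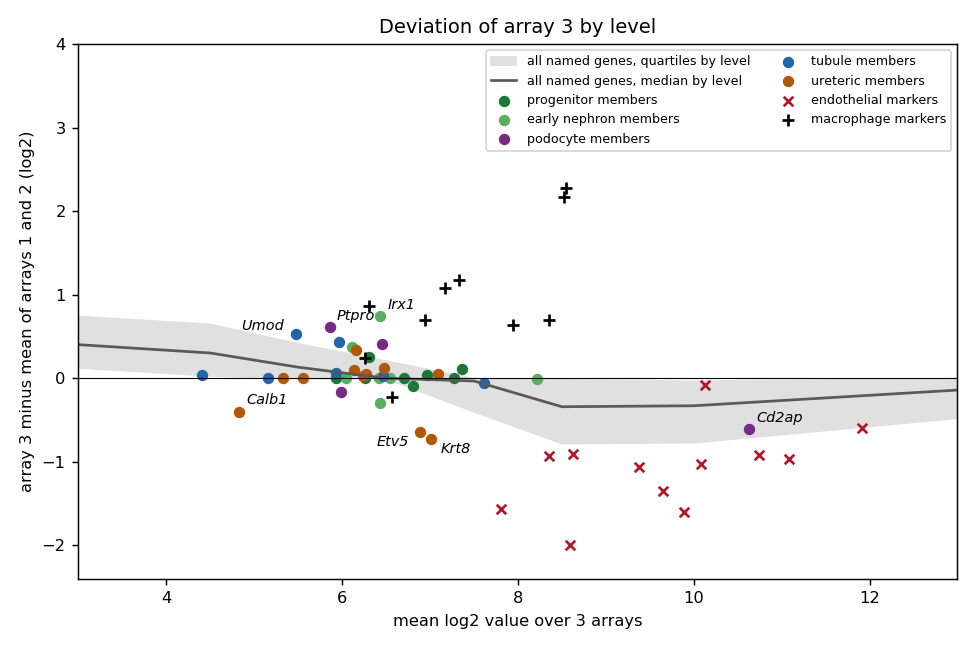
Log2 value in array 3 minus the mean of arrays 1 and 2 (y axis) against the mean log2 value over the 3 arrays (x axis) for the 37 members (coloured points), 12 endothelial markers (crosses) and 10 macrophage markers (plus signs). The dark line and grey band are the median and quartiles of all named genes in bins of level. All endothelial markers lie under 0, 9 of 10 macrophage markers lie over it, and the members spread around it from -0.72 (Krt8) to 0.74 (Irx1).

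The calls that held best were few. Under every alternative that kept the level at 100 (another spread, scaling, gene rule or adjustment, and leaving out each array), 4 members stayed above the level, Cited1, Irx3, Cd2ap and Aqp1, and 7 stayed below it, Osr1, Lhx1, Lrp2, Cubn, Slc12a1, Emx2 and Epcam. With other levels included as well, 2 stayed above (Irx3 and Cd2ap) and 4 below (Cubn, Slc12a1, Emx2 and Epcam). Cited1, Osr1, Lhx1, Cubn, Emx2 and Epcam held equal values in all 3 arrays. Leaving out an array could therefore not move their means and is no check on those calls. Irx3, Lrp2 and Slc12a1 were equal in arrays 1 and 2. Six2 was above by the pooled spread and was on neither side without array 2 or array 3, and Wt1, Sall1, Hnf4a and Gfra1 were on neither side after quantile scaling between arrays.

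**Figure D4:**
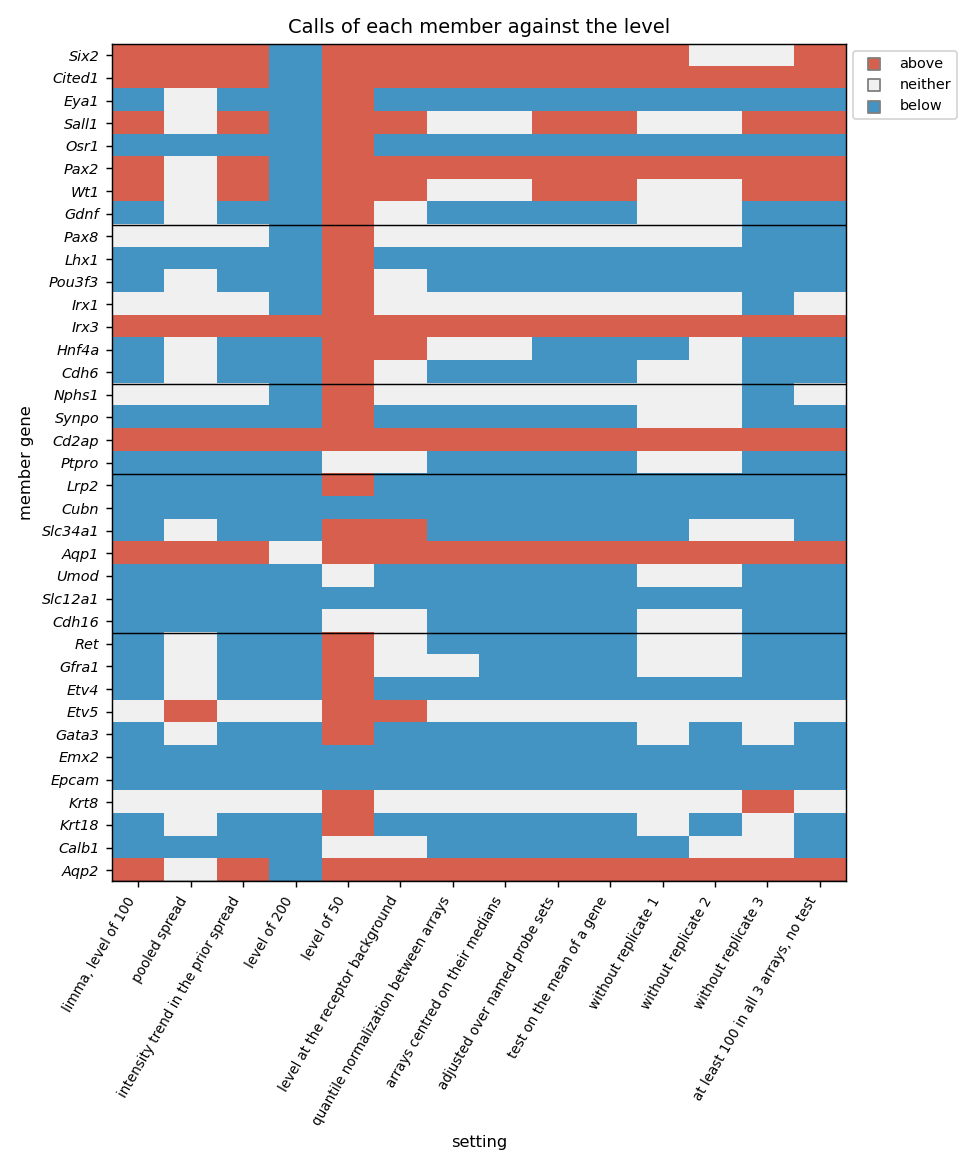
Call of each of the 37 members (y axis, in 5 groups divided by black lines) under the limma test at a level of 100 and 13 alternatives (x axis), in red where the gene was above the level, blue where it was below and pale grey where it was on neither side. Irx3 and Cd2ap are red and Cubn, Slc12a1, Emx2 and Epcam are blue in every column.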

How the data were processed

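The authors deposited one table of log2 values per probe set for the 3 Affymetrix Mouse Gene ST arrays. Affymetrix Expression Console is listed in the submitters' processing notes and the study names GeneSpring and RMA normalization, and which of them summarized the deposited values is not stated. Of 35557 probe sets, 21789 have 1 gene symbol in the platform annotation, 1621 have several and 12147 are unnamed here, and no member was named from a probe set with several symbols. The member genes and gene lists were chosen with earlier results of these data known. Every member is named in the text, and of each further list the first 4 genes above the level and the first 2 below it, in list order.

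Each probe set was fitted with limma 3.58.1 (R 4.3.3) with an intercept alone, and its mean was tested one-sided in each direction against log2 of 100, the low-signal level the study used. P-values were adjusted by Benjamini-Hochberg over all probe sets, with a threshold of 0.05. The procedure was tested on simulated data. No outcome of that test is given here, so it is no check on the p-values of genes with equal values in every array. Alternatives were the pooled or trended spread, levels of 200, 50 or the receptor 95th percentile (6.41 log2), quantile or median scaling, adjustment over named probe sets, testing a gene's mean, and leaving out each array. The number of arrays limits the precision.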

Additional observations from a re-analysis of the deposited data

How the results depend on the processing

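Under the alternatives tried, the count of the 37 members above the level of 100 (9) changed most with the level, to 2 at a level of 200 and 29 at 50. The count below (23) was 12 with the pooled spread, 4 at a level of 50 and 13 at the receptor background. Leaving out each array in turn gave 6 to 9 members above and 12 to 22 below. The 9 and the 22 came without array 3, where 28 members had equal values in the arrays kept and so an own spread of 0. Quantile scaling gave 7 above and 21 below, and median scaling 7 and 22. Of the members' distances from the level, those that turned sign did so with the level. Against 200, the distance of the mean from the level became -0.28 log2 for Six2, -0.37 for Cited1, -0.84 for Sall1, -0.68 for Pax2, -0.94 for Wt1, -0.033 for Aqp1, -0.56 for Aqp2, -0.76 for Etv5 and -0.63 for Krt8. Against 50 it became 0.62 for Eya1, 0.28 for Osr1, 0.66 for Gdnf, 0.78 for Pax8, 0.40 for Lhx1, 0.78 for Pou3f3, 0.79 for Irx1, 0.90 for Hnf4a, 0.47 for Cdh6, 0.81 for Nphs1, 0.34 for Synpo, 0.22 for Ptpro, 0.28 for Lrp2, 0.83 for Slc34a1, 0.32 for Cdh16, 0.51 for Ret, 0.83 for Gfra1, 0.59 for Etv4, 0.63 for Gata3 and 0.49 for Krt18. Against the receptor background it became 0.012 for Pou3f3, 0.14 for Hnf4a, 0.061 for Slc34a1, 0.070 for Gfra1, 0.021 for Pax8, 0.023 for Irx1 and 0.049 for Nphs1. A lower or higher level moves every distance by construction, and leaving out an array leaves fewer samples. No paired analysis was possible because the 3 arrays form 1 group.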
